A study of Rattus norvegicus with 10 samples.

Results

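Chromosome 12 of the rat was described across the regions in which methylated DNA had been counted in the hippocampus after amygdala stimulation. All regions named for this chromosome in the RN4 table of the methyl-capture experiment were taken, 17233 of 574544, and 211 further regions of the chromosome lying in a pair of intervals were left out. Of these regions 9747 (56.6%) had enough tags to be tested, against 50.8% of the regions of the other autosomes, and 7486 were not tested. The chromosome was chosen by the density of its regions and by its share of hypomethylated regions in the comparison described here, so counts and fold changes of that comparison are given as descriptions, and no test set the chromosome against the rest.

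The control rats were sham operated: they carried an electrode in the left lateral amygdala and received no stimulation. The SE rats were stimulated through the same kind of electrode until status epilepticus (SE, a prolonged seizure) developed, and diazepam stopped it. All animals were adult male Sprague-Dawley rats, controls were matched for age, and tissue was taken 3 months after SE, when stimulated rats had been monitored for spontaneous seizures. The tissue, labelled dorsal hippocampus, was a piece of the left hippocampus with CA3 and dentate gyrus. Each library came from 1 rat. There were 5 control and 5 SE libraries, of which control rat 2 and SE rat 7 were labelled discarded, so control rats 1, 3, 4 and 5 were set against SE rats 6, 8, 9 and 10. In such bulk tissue a change of methylation within a cell type and a change in the mixture of neurons and glia cannot be told apart.

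In mammals the methyl group sits mostly on cytosines followed by guanine, it covers most of the genome outside active promoters, and proteins with a methyl-CpG-binding domain (MBD) recognise it. The capture used here binds fragmented double-stranded DNA to such a domain, so it returns more fragments from stretches that hold many methylated CpG sites, and CpG sites are concentrated where genes are concentrated. Damage and rewiring of CA3 and the dentate gyrus follow SE, and methylation there has been studied as a lasting mark of epileptogenesis. A region in this table is a stretch in which the peak caller found a difference between at least 1 pair of libraries, and its value is the number of tags that one library placed in it. Hypomethylated and hypermethylated below stand for a lower and a higher tag count in SE rats at an unadjusted p below 0.01.

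Chromosome 12 was the most densely covered autosome. Its regions spanned 46.7 Mb, from position 61186 to position 46780656, at 369 regions per Mb, while chromosome 19 had 300, chromosome 20 had 294, chromosome 10 had 289 and chromosome 2, the lowest, had 176. Local density was defined as the number of other regions whose midpoint lay within 50 kb on either side. The median tested region of chromosome 12 had 45 such neighbours (quartiles 37 and 53, range 1 to 76), whereas the median on the other autosomes was 33 (quartiles 21 and 43). Within 500 kb the medians were 435 and 303.

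The regions of the chromosome were also longer and slightly deeper. Tested regions had a median length of 660 bp, against 589 bp on the other autosomes, and 1670 of them (17.1%) were longer than 1 kb, against 10.4%. The median of their mean count per library was 13 tags, against 12 elsewhere. The median SD between rats of the same group was 0.353 on the log2 CPM scale (CPM, tags divided by the library's total after TMM scaling, times 1e6), against 0.376 elsewhere. Low counts set the precision of any single region here, since the median region rested on little more than 10 tags per rat.

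Few regions of chromosome 12 were hypomethylated in SE. At p below 0.01 there were 21 (0.215% of those tested), where the same call took in 1.07% of all tested regions, and this was the lowest share of any autosome, or the second lowest (rank 2) with at least 10 counts required in every library or with density offsets, alone or with count. Hypermethylated regions numbered 84 (0.862%), where the call took in 0.584% of all tested regions, exceeded only on chromosomes 19 (1.00%) and 10 (0.893%) among the autosomes. In counts simulated with a single common dispersion, the same fit called 0.995% of unchanged regions, both directions counted. The shares of 0.215% and 0.862% add up to little more than that rate. The number of calls on the chromosome was thus close to what unchanged regions gave there, although its split was uneven. No region of the chromosome passed an adjusted p of 0.05 (edgeR quasi-likelihood test, Benjamini-Hochberg), where the lowest value was 0.375, and DESeq2 also gave 0. Without adjustment 535 of the 9747 tested regions had a p below 0.05 in edgeR, 113 lower and 422 higher in SE, and DESeq2 gave 222. The split into lower and higher at this p was not counted on the other autosomes, so it has no background here. On chromosomes 19 and 20, with fewer tested regions, the edgeR counts were 598 of 9497 and 538 of 8776. The total on chromosome 12 was thus no excess over these chromosomes, and as a share of tested regions it was the lowest of any autosome. On chromosome 10 it was 974 of 16803 and on chromosome 2, with the highest share, 1774 of 22210.

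The difference lay in the whole distribution of regions rather than in a few of them. The median log2 fold change (SE over control) was 0.10 on chromosome 12 and -0.00 on the other autosomes, and 62.2% of the regions had a positive value, against 49.9%. In 90 regions (0.923%) every SE rat was below every control rat, against 1.94% of all tested regions, and in 258 (2.65%) every SE rat was above every control rat, against 1.69%. These shares rest on the same 8 libraries as the calls and are no separate evidence.

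Local density went along with both kinds of call on the other autosomes. When their tested regions were divided into 4 classes of density, the hypomethylated share was 2.93% among regions with 0 to 21 neighbours, 0.745% with 22 to 32, 0.348% with 33 to 42 and 0.233% with 43 to 81. The hypermethylated share went the other way, from 0.275% through 0.497% and 0.679% to 0.833%. Median log2 fold changes in the same order were -0.17, -0.00, 0.05 and 0.08.

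Chromosome 12 had its regions mostly at the dense end of this scale. The densest class held 5815 (59.7%) of its tested regions, against 25.8% on the other autosomes, and the sparsest class held 360 (3.69%), against 25.4%. Hypomethylated regions were nevertheless less frequent on chromosome 12 in each of these 4 classes: 4 of 360 (1.11%), 5 of 1067 (0.469%), 2 of 2505 (0.0798%) and 10 of 5815 (0.172%), from sparse to dense. In 20 finer bins they were less frequent in most but not all. In the densest bin, with 56 to 81 neighbours and 20.9% of the tested regions of the chromosome, the share was 0.148% (3 regions) against 0.140% elsewhere. Hypermethylated regions numbered 0, 8 (0.750%), 17 (0.679%) and 59 (1.01%), so the share with 33 to 42 neighbours was the same as elsewhere to 3 digits and that in the densest class was higher. Median log2 fold changes on the chromosome were -0.06, 0.09, 0.09 and 0.11, each above the value of the same class elsewhere. The sparse regions of chromosome 12 were not as isolated on a larger scale as those of the other autosomes, with a median of 207.5 regions within 500 kb against 153.

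**Figure D1:**
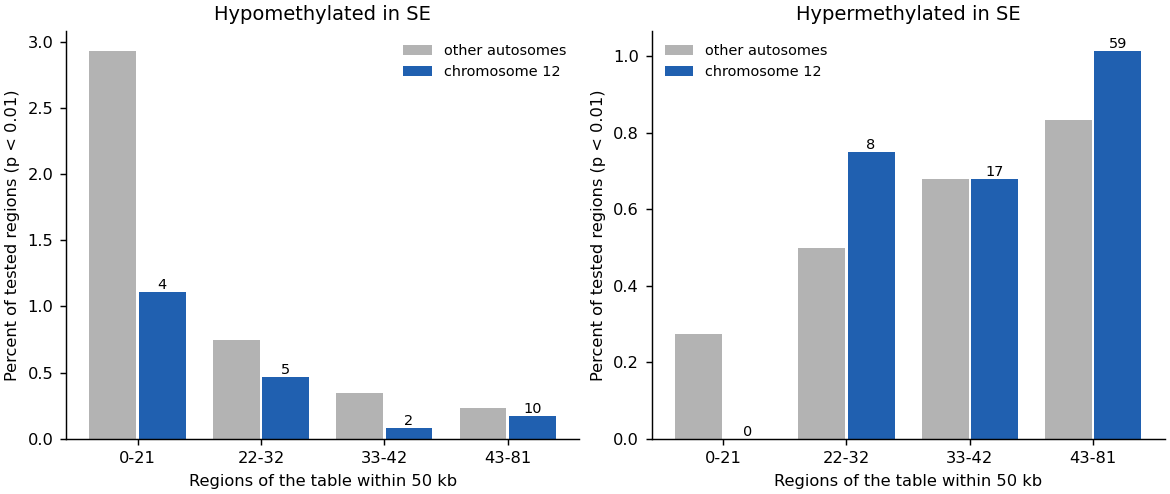
Percent of tested regions called hypomethylated (left) and hypermethylated (right) in SE at p below 0.01, by class of local density (number of regions within 50 kb). Grey bars are the other autosomes and blue bars chromosome 12, with its number of called regions on top. The hypomethylated share falls from 2.93% to 0.233% in the grey bars, and the blue bars lie below them in all 4 classes.

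The hypomethylated count was next set beside the number that regions of the same density gave elsewhere, as a description, since the chromosome was chosen on this count. If the regions of chromosome 12 had been called as often as those of the other autosomes, 104.5 would have been hypomethylated. With the rate of the other autosomes taken in each of 20 density bins, the number was 37.0, so matching on density covered 80.8% of the gap between 104.5 and the 21 observed. The observed count was 0.567 times the density-matched one, and without SE rat 10 it was 0.866 times (27 against 31.2). Counting neighbours within 500 kb gave 32.5 regions (ratio 0.646, 86.2% of the gap), and matching on both radii gave 36.4 (ratio 0.577). Matching also on mean count gave 38.7 (ratio 0.543) and matching also on region length gave 38.4 (ratio 0.547).

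For hypermethylated regions the numbers were 55.8 at the rate of the other autosomes and 72.6 at matched density, against 84 observed (ratio 1.16). Neighbours within 500 kb gave 78.1 (ratio 1.08). Regions with every SE rat below every control rat numbered 90 against 120 at matched density (ratio 0.749), and those with every SE rat above every control rat numbered 258 against 209 (ratio 1.23). In these counts the observed number of lower regions was below, and that of higher regions above, the density-matched one.

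The other dense chromosomes did not share 1 pattern. Chromosome 20, with a median density of 44 close to that of chromosome 12, had 70 hypomethylated regions (0.798%) where matching gave 57.2 (ratio 1.22), and its hypermethylated ratio was 0.936. Chromosome 10 had 64 where matching gave 118.2, and its ratio of 0.542 was the only one below that of chromosome 12. Chromosome 19 had 54 against 62.1 (ratio 0.869) and the highest hypermethylated ratio of these chromosomes, 1.52. The next lowest ratios were 0.758 on chromosome 1 and 0.770 on chromosome 8, so chromosomes 10 and 12 stood together at the low end although their densities differed.

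The chromosome was then mapped in 2 Mb windows, each valued by the summed CPM of its tested regions in every rat. In 23 of the 24 windows the SE mean was above the control mean. The log2 difference ranged from -0.04 between 4 and 6 Mb to 0.16 between 36 and 38 Mb, with a median of 0.09, whereas the median over 1258 windows of the other autosomes was -0.05 and 37.1% of those were positive. In 6 windows (25%) every SE rat was above every control rat, against 12.5% of all windows, and in 0 every SE rat was below, against 18.2%. These 6 lay between 2 and 4, 28 and 30, 32 and 34, 36 and 38, 40 and 42, and 44 and 46 Mb, so 5 of them were in the distal part of the chromosome.

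The window from 36 to 38 Mb differed most. Its summed CPM was 1450, 1340, 1350 and 1356 in control rats 1, 3, 4 and 5 and 1495, 1478, 1572 and 1588 in SE rats 6, 8, 9 and 10, a log2 difference of 0.16 ± 0.037 (SE of the difference, n = 4 per group). The groups did not overlap, though control rat 1 stood closer to the SE rats than to the other controls. In the window from 44 to 46 Mb the controls had 2115, 1958, 1871 and 1892 and the SE rats 2128, 2126, 2180 and 2246, with only a narrow gap between control rat 1 and the lowest SE rats and a log2 difference of 0.15 ± 0.044. Between 14 and 16 Mb the controls had 1779, 1667, 1547 and 1599 and the SE rats 1800, 1750, 1851 and 1884. Here control rat 1 exceeded SE rat 8, so the groups overlapped although the log2 difference was 0.15 ± 0.049.

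The summed CPM of the window from 4 to 6 Mb went the other way, and this window was the densest of the chromosome with a median of 56 neighbours. Controls had 1909, 1946, 1973 and 1945 and SE rats 1877, 1926, 1929 and 1833, a log2 difference of -0.039 ± 0.020 with overlapping groups. Its 467 tested regions as a set hardly moved, with 49.7% positive and a median log2 fold change of -0.0019. Between 18 and 20 Mb all 8 rats lay close together, the controls at 559, 561, 554 and 558 and the SE rats at 558, 565, 550 and 572, a log2 difference of 0.0087 ± 0.013. Between 16 and 18 Mb the controls had 943, 899, 873 and 922 and the SE rats 956, 906, 895 and 933, a log2 difference of 0.022 ± 0.032. In neither window was the difference larger than its error. The sparsest window, from 0 to 2 Mb with a median of 21 neighbours, had 311, 327, 332 and 304 in controls and 337, 334, 326 and 335 in SE rats, which overlapped through 1 SE rat and gave a log2 difference of 0.066 ± 0.031.

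**Figure D2:**
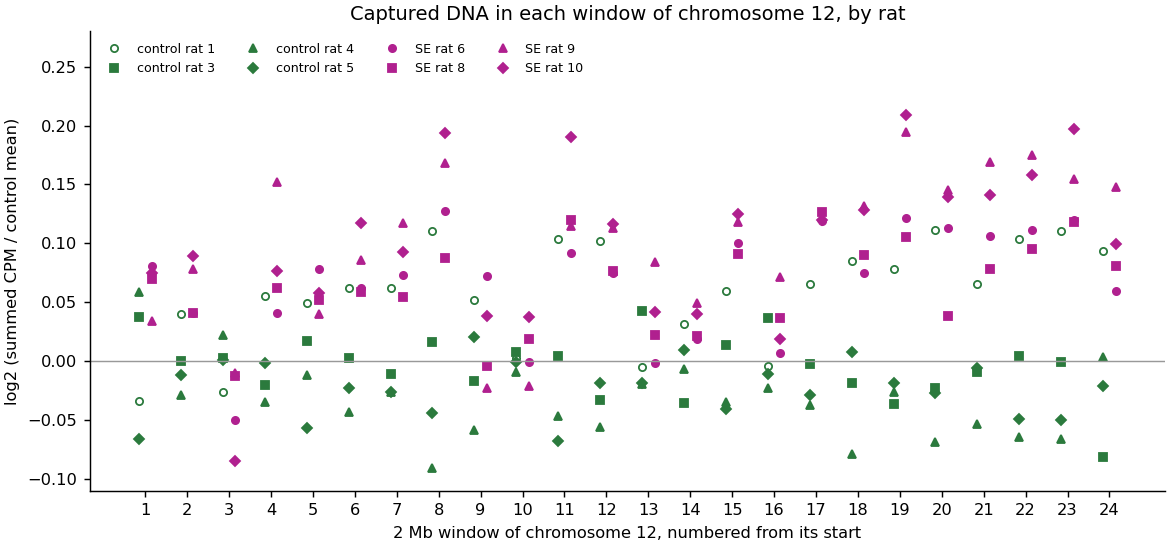
Summed CPM of the tested regions in each 2 Mb window of chromosome 12, as the log2 ratio to the mean of the control rats, for the 4 control (green, rat 1 open) and the 4 SE rats (magenta), windows numbered from the start of the chromosome. The SE mean is above the control mean in 23 of 24 windows, and control rat 1 lies above the other controls in 19.

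Of the single rats left out, control rat 1 changed the number of windows without overlap most. It was above the other 3 controls in 19 windows and above the lowest SE rat in 15. Against control rats 3, 4 and 5 alone, every SE rat was above every control in 18 windows. Without control rat 1 such separation also rose elsewhere. Every SE rat was then above every control in 23.1% of all windows and below in 42.1%, against 12.5% and 18.2% with it. Control rat 4 was the lowest of the 8 rats in 15 windows, and SE rat 9 was the highest in 10 and SE rat 10 in 9.

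The density of regions predicted a difference in the same direction for most windows, but a smaller one. A curve of each library's deviation against local density, fitted on the other autosomes, was applied to the regions of chromosome 12. The predicted difference (mean log2 over regions, SE less control) ranged from -0.083 between 0 and 2 Mb to 0.070 between 42 and 44 Mb with a median of 0.054, and the observed one had a median of 0.072 on the same scale. On the other autosomes these medians were -0.033 and -0.044. What remained after the prediction was positive in 22 of 24 windows, with a median of 0.036 against -0.011 elsewhere, and ranged from -0.060 between 4 and 6 Mb to 0.14 between 0 and 2 Mb. The sparsest window thus departed most from the curve, and the densest had the most negative remainder, though windows such as that from 36 to 38 Mb (0.086) departed further upward.

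Across windows the observed and predicted differences were related less closely on chromosome 12 than elsewhere. Pearson's r was 0.437 and Spearman's rho 0.603 over 24 windows, and 0.858 and 0.842 over 1258 windows of the other autosomes. All windows came from the same 8 libraries, and those of chromosome 12 covered a narrower range of density, so these are descriptions. Without the window from 0 to 2 Mb r was 0.508 (n = 23), and without that from 18 to 20 Mb as well it was 0.456 (n = 22).

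**Figure D3:**
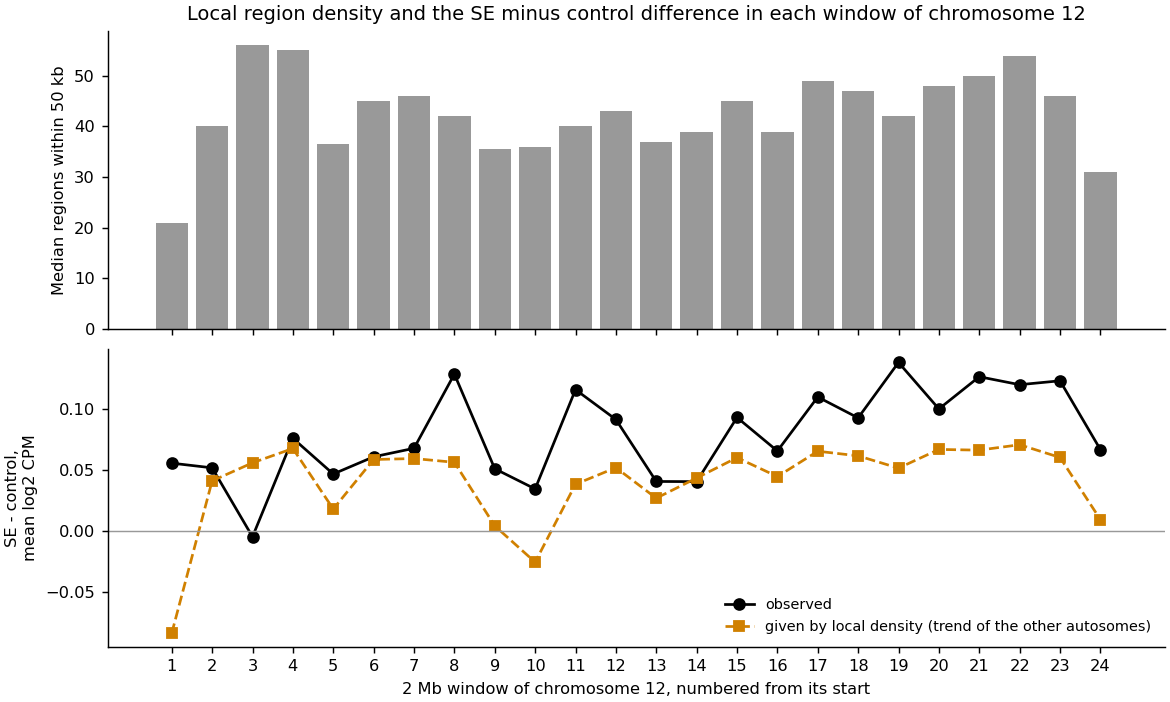
Median local density of the tested regions (top) and difference between SE and control rats (bottom) in the 24 windows of 2 Mb of chromosome 12, numbered from its start. Black points are the observed difference (mean log2 CPM over the tested regions of a window). Orange squares are the difference predicted from local density by the curves of the other autosomes. The observed difference is above the predicted one in 22 of 24 windows.

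The same ordering was seen in the libraries as a whole. Chromosome 12 took 3.33%, 3.14%, 3.03% and 3.11% of the tags counted in regions in control rats 1, 3, 4 and 5 and 3.37%, 3.33%, 3.42% and 3.46% in SE rats 6, 8, 9 and 10. The intervals left out were not counted for the chromosome. Control rat 1 was at the level of SE rat 8 and marginally above it, so the groups overlapped. The means were 3.15% ± 0.126 and 3.40% ± 0.0584 (SD, n = 4), which is 7.66% more in SE. The discarded libraries had higher shares than any used library, with 3.52% in control rat 2 and 3.89% in SE rat 7.

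The dependence of counts on density outside chromosome 12 ordered the rats in nearly the same way. The slope of log2 CPM deviation on log2 density over the other autosomes was 0.0216, -0.0551, -0.108 and -0.0790 in control rats 1, 3, 4 and 5, and 0.0441, 0.0214, 0.0703 and 0.0852 in SE rats 6, 8, 9 and 10. A positive slope means that a library held relatively more tags in dense stretches. Control rat 1 again lay beside SE rat 8, and control rat 4 was lowest on both measures. In the discarded libraries the slope was 0.0819 in control rat 2 and 0.680 in SE rat 7.

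The mean deviation of chromosome 12 from the other autosomes, in log2 CPM, was 0.022, -0.052, -0.095 and -0.062 in the controls and 0.037, 0.015, 0.064 and 0.071 in the SE rats, an SE less control difference of 0.094. The curves fitted to the other autosomes predicted 0.060, or 64.0% of it. The remaining deviations were 0.0088, -0.020, -0.035 and -0.021 in the controls and 0.011, 0.0040, 0.027 and 0.026 in the SE rats, a difference of 0.034. After the prediction control rat 1 was still above SE rat 8, and the other 3 controls were below all SE rats. Density here counts the regions of the table, which were found by differences between libraries, and not CpG sites.

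**Figure D4:**
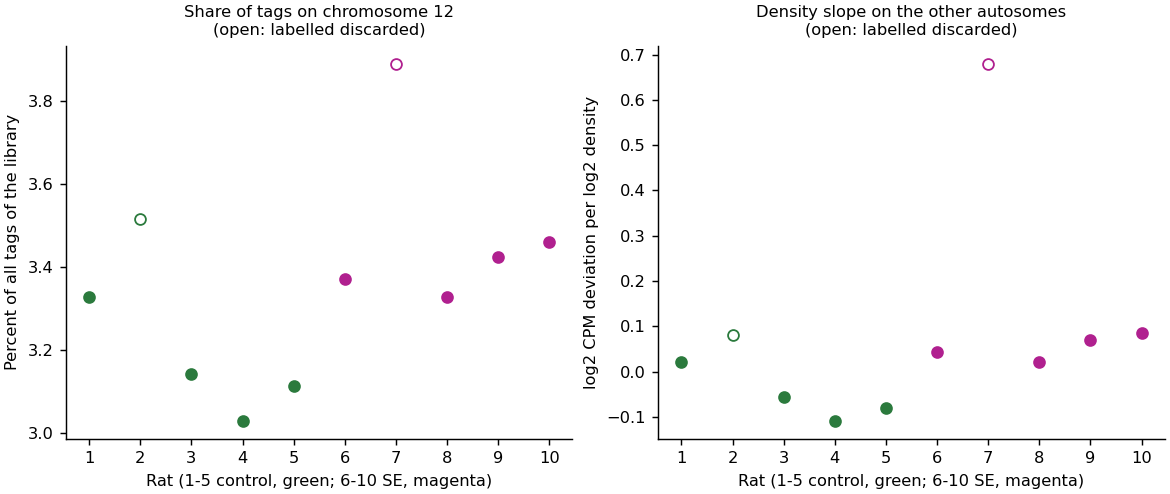
Share of the tags counted in regions that lay on chromosome 12 (left) and slope of log2 CPM deviation on log2 density over the other autosomes (right) in each of the 10 libraries. Green is control, magenta SE, and open points are labelled discarded. Among the 8 used libraries the share runs from 3.03% (control rat 4) to 3.46% (SE rat 10), and the library of SE rat 7 stands apart with a slope of 0.680.

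The 21 hypomethylated regions were scattered. They lay in 15 of the 24 windows with at most 3 in one, between 12 and 14 Mb (of 489 tested). The median distance between neighbours was 1415 kb. Their median local density was 39 (range 4 to 64), below the 45 of all tested regions, and their median length was 631 bp. Log2 fold changes ran from 0.59 to 1.41 in size with a median of 1.01, on 2 to 61 tags per library. In 13 of them no SE rat overlapped the controls, where 1.94% of all tested regions had every SE rat below every control. The calls were chosen on these same 8 libraries, so large fold changes and separate groups follow from the choice. The adjusted p-values of all called regions of the chromosome lay between 0.375 and 0.604, so no single call passed the correction.

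In the region with the smallest p of these 13, at chr12:18275254-18275843 in a sparse stretch with 12 neighbours, the controls had 2.42, 6.18, 3.88 and 5.38 CPM and the SE rats 2.31, 1.44, 2.41 and 1.53. The highest SE rat was only just below control rat 1, and the log2 fold change was -1.22 ± 0.34 (SE). At chr12:12854649-12855140 the controls had 3.63, 1.98, 2.85 and 4.14 CPM and the SE rats 1.39, 1.44, 0.966 and 0.955, with a log2 fold change of -1.41 ± 0.41, the largest decrease among the called regions. At chr12:29619596-29620227 the controls had 4.11, 4.2, 2.85 and 3.72 CPM and the SE rats 0.694, 1.68, 1.21 and 2.29, with a log2 fold change of -1.30 ± 0.38. These 3 regions held 3 to 26 tags per rat, and the separation of the groups was one of CPM: in the first, control rat 1 and SE rats 6 and 9 had 10 tags each, and in the third SE rat 10 had 12 tags and control rat 4 had 11. The region at chr12:16829516-16831132, 1616 bp long with 15 neighbours, had the highest counts of the named hypomethylated ones: 9.67, 9.64, 13.2 and 12.6 CPM in controls and 7.63, 7.44, 6.76 and 7.07 in SE rats (log2 fold change -0.64 ± 0.20). At chr12:27656654-27657034 the controls had 2.90, 2.72, 2.59 and 4.14 CPM and the SE rats 0.694, 1.44, 1.93 and 1.34, a log2 fold change of -1.20 ± 0.40. All of these regions but chr12:16829516-16831132 passed the filter (a summed count of 70) only with the higher tags of the control rats. Of these 5 calls, those at chr12:18275254-18275843, chr12:12854649-12855140 and chr12:27656654-27657034 were lost with all 10 libraries (unadjusted edgeR p of 0.021, 0.030 and 0.026). The last was also lost with DESeq2 (p of 0.012) and without SE rat 6 (p of 0.022), and that at chr12:16829516-16831132 with density offsets and without control rat 4 or control rat 5 (p of 0.011 in each). The discarded SE rat 7 had 1 tag in the first of these 5 regions and 0 in the third, and 36 in the second, where its CPM was above that of 2 of the 4 used controls.

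The 84 hypermethylated regions were more numerous toward the distal end and in dense stretches, where most tested regions of the chromosome also lay. Their median density was 47 (range 24 to 72), against 45 for all tested regions of the chromosome. None lay in the sparsest class, which held only 360 tested regions. Their median length was 776.5 bp, with 21 longer than 1 kb. Windows from 24 to 48 Mb held 54 of them (0.977% of 5529 tested regions) and those from 0 to 24 Mb held 30 (0.711% of 4218). For hypomethylated regions the shares were 0.163% (9) and 0.284% (12). The window from 42 to 44 Mb held the most hypermethylated regions, 9 of 667 tested. Those from 14 to 16, 32 to 34 and 36 to 38 Mb held 8 each, of 483, 567 and 417 tested. The first window also held the most tested regions, so this order of counts is not one of shares. Among neighbouring hypermethylated regions 16 gaps were at most 50 kb, the median gap being 258 kb, whereas the longest stretch without one ran for 5.43 Mb. Fold changes ran from 0.59 to 1.60 on the log2 scale with a median of 0.91. In 50 regions no SE rat overlapped the controls, where 1.69% of all tested regions had every SE rat above every control. As for the hypomethylated set, fold changes of this size and separate groups follow from the choice at this p.

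The hypermethylated region with the smallest p, at chr12:32661315-32661761 with 57 neighbours, had 0.967, 0.494, 2.07 and 1.03 CPM in controls and 3.47, 3.36, 4.10 and 3.06 in SE rats. This log2 fold change of 1.60 ± 0.41 was the largest among the tested regions of the chromosome, and its adjusted p in edgeR was 0.375. The region held 2 to 8 tags per control rat and 14 to 17 per SE rat. It thus passed the filter (a summed count of 70) only with its higher SE tags. A further 2 hypermethylated regions lay beside it, so that 3 of the 5 tested regions within 11.2 kb were called. This group was singled out after its values were seen. At chr12:32662345-32663406 the controls had 6.04, 4.45, 2.85 and 2.69 CPM and the SE rats 6.94, 7.92, 5.55 and 5.92, a log2 fold change of 0.72 ± 0.26. At chr12:32671817-32672555 the controls had 3.14, 2.22, 3.36 and 2.27 CPM and the SE rats 5.55, 2.88, 6.76 and 4.58, a log2 fold change of 0.85 ± 0.31. In both of the added regions the groups overlapped.

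The other hypermethylated regions chosen by smallest p were spread along the chromosome. At chr12:46733739-46734546, near the distal end of the regions, the controls had 2.42, 2.47, 3.62 and 4.34 CPM and the SE rats 5.32, 8.16, 5.55 and 6.88, a log2 fold change of 0.99 ± 0.27. At chr12:34228725-34229440 the controls had 2.18, 1.73, 1.55 and 2.69 CPM and the SE rats 5.55, 4.80, 3.14 and 5.35, a log2 fold change of 1.19 ± 0.33. In both, the lowest SE rat was above the highest control, and both calls were lost with all 10 libraries (unadjusted edgeR p of 0.16 and 0.089). At chr12:43683069-43683643 the controls had 1.93, 0.989, 1.81 and 2.48 CPM and the SE rats 5.09, 2.88, 4.59 and 4.58, a log2 fold change of 1.22 ± 0.35. This region held 4 to 12 tags per control rat and passed the filter only with the higher SE tags. At chr12:12575131-12575726 the controls had 1.21, 1.48, 0.517 and 1.24 CPM and the SE rats 1.62, 2.64, 2.90 and 4.97, a log2 fold change of 1.44 ± 0.42. In this last region SE rat 6 was barely above control rat 3. It held 2 to 6 tags per control rat, 7 to 12 in SE rats 6, 8 and 9 and 26 in SE rat 10. Without SE rat 10 it did not pass the filter, so its inclusion rested on SE tags.

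**Figure D5:**
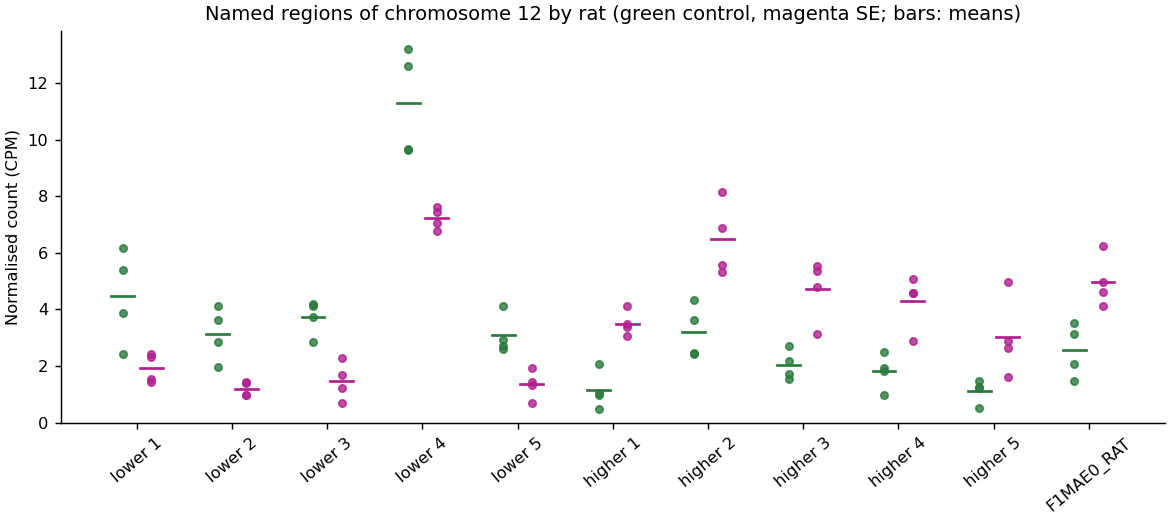
CPM in each of the 8 used rats for the 5 hypomethylated and 5 hypermethylated regions of chromosome 12 with the smallest p and no overlap between groups, in the order of p, and for the region in the intron of F1MAE0_RAT. Green points are control rats, magenta points SE rats and bars the group means. In all 11 regions the groups are separate, by construction of the choice for the first 10.

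A region overlapping an intron of F1MAE0_RAT, a rat protein entry that the study lists as altered both after amygdala stimulation and after traumatic brain injury, was included by name. It lay at chr12:21647993-21648906 with 49 neighbours. The controls had 3.14, 1.48, 2.07 and 3.52 CPM and the SE rats 4.62, 6.24, 4.10 and 4.97, and the groups did not overlap. Means were 2.55 ± 0.940 and 4.98 ± 0.910 CPM (SD, n = 4), a log2 fold change of 0.94 ± 0.31 (SE) with an adjusted p of 0.539 in edgeR. The call was lost with DESeq2 (unadjusted p of 0.011) and without control rat 3, control rat 4 or SE rat 8 (unadjusted edgeR p of 0.021, 0.012 and 0.017). The list that contains this intron was chosen on these same samples, so the value is not independent evidence of its direction. An annotation of RN4 was not used here, and the other regions are given by position alone.

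The 3 regions with the highest mean CPM did not pass the call. The median region of the chromosome had 2.99 CPM and the 99th percentile was 10.1 CPM. The region at chr12:4359665-4362361, 2696 bp long, had 166, 197, 254 and 189 CPM in controls and 190, 159, 206 and 156 in SE rats (log2 fold change -0.18 ± 0.10). Without control rat 1 this was -0.26 at an unadjusted edgeR p of 0.0056, and with loess offsets it was 0.061. That at chr12:44065892-44067436 had 111, 144, 122 and 102 CPM in controls and 111, 149, 159 and 129 in SE rats (log2 fold change 0.19 ± 0.11), and with loess offsets in place of TMM the value was 0.40 at an unadjusted edgeR p of 6.7e-05. That at chr12:4414414-4415584 had 88.5, 80.8, 83.6 and 79.6 CPM in controls and 62.7, 93.9, 65.2 and 64.4 in SE rats, where SE rat 8 was above every control and the other SE rats were below them all. Its log2 fold change was -0.22 ± 0.12, and without SE rat 8 it was -0.37 at an unadjusted edgeR p of 0.0032. The first and the third lay in the window from 4 to 6 Mb, the only one with a lower SE mean of the summed CPM. Their group means went from 202 to 178 and from 83.1 to 71.5 CPM. These falls made up a large part of the fall of the window's sum from 1943 to 1891 CPM.

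The densest and the sparsest tested region did not pass the call either. At chr12:29016502-29017798, with 76 neighbours, the controls had 4.84, 6.67, 4.40 and 6.62 CPM and the SE rats 5.78, 8.40, 4.10 and 5.35, a log2 fold change of 0.055 ± 0.25 whose sign changed when control rat 1, control rat 4 or SE rat 8 was left out. At chr12:949472-949898, with 1 neighbour, the controls had 3.14, 2.47, 2.59 and 4.14 CPM and the SE rats 2.77, 0.960, 2.17 and 1.34, a log2 fold change of -0.79 ± 0.38 (unadjusted edgeR p of 0.041).

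The discarded libraries gave a further reading of the called regions, with 1 rat on each side. SE rat 7 was below control rat 2 in 15 of the 21 hypomethylated regions (71.4%), against 45.0% of all tested regions of the chromosome. It was above control rat 2 in 38 of the 84 hypermethylated regions (45.2%), against 55.0%. The direction thus recurred more often than the background for the first set and less often for the second, and the steep dependence of SE rat 7 on density stood beside both values and its part in them was not tested.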

How the data were processed

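Male rat hippocampal DNA, 1 library per rat, was captured with the MethylMiner MBD protocol and sequenced. The authors mapped the reads to RN4 (BWA), looked with MACS for stretches that differ within any pair of libraries, joined these with BEDTools and removed duplicate tags. They deposited raw tag counts per region and library, without pooling replicates. Whether the discarded libraries took part in defining regions is not given in the sources used here.

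Totals over regions were 5499370 to 7179519 tags in the 8 used libraries and 7154696 (control rat 2) and 14655629 (SE rat 7) in the discarded ones. Counts agreed less well than sampling alone gives in every pair of used libraries (chi-square per degree of freedom 1.24 to 1.48), so each counted as a replicate.

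Regions with a summed count under 70 (the 50th percentile) were removed, and the 291987 left, sex chromosomes included, were fitted with edgeR 4.0.16 (R 4.3.3; TMM, quasi-likelihood F test, condition only, two-sided, Benjamini-Hochberg over all tested regions). The call at an unadjusted p below 0.01, the filter and the libraries follow the study's methods. On simulated counts the fit called 60% of regions changed by 1 log2 unit, 99% of those changed by 2 and 0.995% of unchanged ones. These counts had a single common dispersion (0.0336) and no dependence on density, so the rates need not hold for the real libraries. DESeq2 1.42.0, limma 3.58.1 loess offsets, other scalings and filters, density offsets, other windows and leaving out each rat were alternatives.

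Density-matched counts took the call rate of the other autosomes in 20 quantile bins. Predicted differences came from a spline (3 degrees of freedom) per library on the other autosomes. Windows started at position 0, and regions were placed by midpoint. Named regions were the 5 with the smallest p in each direction without overlap between groups, the intron region in the study's supplement, the 3 with the highest mean CPM, and the densest and the sparsest. Named windows were the 3 highest, the 3 lowest, the densest and the sparsest. The chromosome, these lists and tests were chosen with earlier results of these data known. Region sequences and gene annotation were not analysed here.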

Additional observations from a re-analysis of the deposited data

Results flagged for a closer look

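In 86 groups of 4 rats, the values of the named regions and of the windows of chromosome 12 were searched for a rat far from the other 3 (Dixon's criterion at 95%, which flags about 1 group in 20 by chance), and 2 were found. In the window from 36 to 38 Mb control rat 1 had a summed CPM of 1450, against 1340 to 1356 in the other controls. In the region at chr12:4414414-4415584 SE rat 8 had 93.9 CPM, against 62.7 to 65.2 in the other SE rats.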

How the results depend on the processing

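The 21 hypomethylated regions became 4 with DESeq2, 36 without a region filter, 12 with at least 10 counts in every library, 8 with all 10 libraries, 36 with density offsets and 34 with density and count offsets, and 15 to 28 when 1 rat was left out. The 84 hypermethylated regions became 22 with DESeq2, 135 without the filter, 28 with at least 10 counts and 45 with all 10 libraries, and 63 to 104 when 1 rat was left out. With density offsets the split was 36 lower to 56 higher. These were 0.369% and 0.575% of its tested regions, against 0.677% and 0.550% on the other autosomes. The hypermethylated share was then close to that of the other autosomes. The median shift of 0.10 became 0.047 with density offsets and 0.046 with density and count offsets (0.082 to 0.12 when 1 rat was left out). The observed to expected ratio stayed below 1 under all 23 alternatives, at 0.474 to 0.866 when 1 rat was left out, the highest without SE rat 10. The alternatives reuse the libraries on which the chromosome was chosen for its low share, so they are no separate evidence of a low ratio. The 6 windows above the controls became 13 of 47 with 1 Mb windows (9.65% of all such windows) and 0 with all 10 libraries (0.0781% of all windows). When 1 rat was left out they became 5 to 18. They were 18 without control rat 1 (23.1% of all windows), 10 without control rat 3 (13.9%) and 11 without SE rat 8 (16.8%). Windows below the controls became 1 when windows were shifted by 1 Mb, and 0 to 1 when 1 rat was left out. Among values of named regions, 249 kept their direction and side of the threshold, 14 were no longer past it (each given beside its region above), 3 came to pass it and 8 reversed. A setting whose filter removed a named region gave no value for it. That held for most of them with at least 10 counts in every library, and for chr12:12854649-12855140 without control rat 1 or 5. It also held for chr12:27656654-27657034 without control rat 5 and chr12:12575131-12575726 without SE rat 10. Reversed were chr12:4359665-4362361 with loess offsets (0.061) and all 10 libraries (0.14), chr12:4414414-4415584 with all 10 libraries (0.17), and chr12:29016502-29017798 with density offsets (-0.0048), density and count offsets (-0.020), and without control rat 1 (-0.0076), control rat 4 (-0.045) or SE rat 8 (-0.15); the last region ranged from -0.15 to 0.19 when 1 rat was left out. The causes were not tested. Matching on both radii and on region length was chosen after seeing the data. No paired analysis was possible because the groups share no rat numbers. Depth limits single regions, most of which held about 13 tags per library.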
